A study of Mus musculus with 6 samples.

Results

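The 36 genes described here are interferon-stimulated genes, transcripts that cells raise when interferon reaches their surface. They were taken by symbol from a list of names drawn up with earlier results of these data known, under a rule that uses no measured value, and all 36 were among the 17666 genes measured in the mouse auditory nerve. The nerve came from young adult C57 mice aged 1.5 to 2.5 months, 3 labelled wildtype and 3 labelled FactorB KO, a knockout of complement factor B, and the design asked how the nerve differs between the genotypes. Each sample was the nerve dissected from the 2 cochleas of 1 mouse, so the replicates are separate animals. The labels give neither the KO allele nor how it was made.

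Interferons signal through paired receptors on the cell surface. Type I interferons use IFNAR1 and IFNAR2, whose kinases JAK1 and TYK2 phosphorylate transcription factors such as STAT2; a complex of STAT2 and IRF9 then binds the interferon-stimulated response element in target promoters. Interferon gamma uses IFNGR1 and IFNGR2 and acts at gamma-activated sites. The induced proteins sense foreign RNA, block translation or entry of viruses, tag proteins with ISG15 and coat the vacuoles of intracellular microbes. In nervous tissue, low levels of these transcripts are present without infection, in glia, macrophages and vessels as well as neurons.

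The values are the authors' normalized counts, gene counts scaled per sample and rounded, and each library summed to between 38675077 and 41496282. The number of reads behind them is unknown. Cfb, the targeted gene, went against the labels: it had 55, 39 and 116 normalized counts among libraries labelled wildtype, against 336, 351 and 376 among those labelled knockout. The table cannot tell whether these reads fall inside the disrupted stretch of Cfb. Every direction in the text runs from the libraries labelled wildtype to those labelled knockout, whatever their true genotype. The nerve's transcripts were abundant in every library, with Nefh, a neurofilament subunit of large axons, at 55190 to 105548 normalized counts. Wildtype replicate 3 stood apart: of 14 nerve genes it had the lowest value for 10, and of 9 measured red cell genes it had the highest value for all 9.

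The promoters are shown first because many of these genes carry there the element that the signalling complex binds. RefSeq windows of 300 bases around the gene start (build GRCm38.p6, from 250 bases before to 50 after) were at hand for 28 of the 36 genes. The core of the interferon-stimulated response element was searched on both strands as GAAA, any 2 bases and GAAA. It was found in the windows of 16 of the 28 genes, or 57.1%, against 1079 of 27025 genes with a window, or 3.99%. The gamma-activated site, searched as TTCNNNGAA, which reads the same on both strands, was found for 11 of 28 genes, or 39.3%, against 9.55% of all genes. Matches of both motifs overlapped each other in 2 of 34 windows of these genes. A match describes the letters and is not a measured binding site. The 250 bases before the start are printed for 4 genes of different roles, with the response element cores in capitals. Stat2 (chr10:128270248-128270497, plus strand) is the signalling member with the clearest difference below. Ifit1 (chr19:34640639-34640888, plus strand), Isg15 (chr4:156200819-156201068, minus strand) and Irgm1 (chr11:48871421-48871670, minus strand) carry the element close to the start and had overlapping values.
Stat2: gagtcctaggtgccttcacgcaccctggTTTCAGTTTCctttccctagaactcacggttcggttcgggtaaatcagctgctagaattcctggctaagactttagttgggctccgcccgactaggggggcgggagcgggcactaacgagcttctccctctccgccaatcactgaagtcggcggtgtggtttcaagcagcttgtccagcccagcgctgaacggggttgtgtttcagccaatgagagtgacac
Ifit1: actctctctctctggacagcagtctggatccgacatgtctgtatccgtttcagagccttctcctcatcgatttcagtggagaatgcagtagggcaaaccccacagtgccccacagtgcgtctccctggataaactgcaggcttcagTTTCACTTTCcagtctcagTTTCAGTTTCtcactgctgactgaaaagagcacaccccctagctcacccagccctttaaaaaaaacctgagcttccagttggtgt
Isg15: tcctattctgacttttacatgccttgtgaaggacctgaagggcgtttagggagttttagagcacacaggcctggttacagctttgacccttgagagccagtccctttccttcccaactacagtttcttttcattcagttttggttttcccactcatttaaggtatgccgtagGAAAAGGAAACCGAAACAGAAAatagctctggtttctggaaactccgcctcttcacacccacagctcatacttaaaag
Irgm1: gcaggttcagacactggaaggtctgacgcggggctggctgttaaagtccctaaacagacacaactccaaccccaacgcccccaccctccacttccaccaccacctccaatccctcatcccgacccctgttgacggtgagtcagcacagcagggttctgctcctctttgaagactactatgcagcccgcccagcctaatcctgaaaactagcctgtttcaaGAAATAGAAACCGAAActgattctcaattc

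The single core of Stat2 ends 213 bases before the start. In Ifit1 there are 2 cores, which end 95 and 76 bases before it. In Isg15, 3 overlapping cores form 1 run and end 69, 63 and 57 bases before it, and in Irgm1 2 overlapping cores end 21 and 15 bases before it. The median log2 difference was 0.10 over the 16 genes with it and 0.10 over the 12 without it. The groups did not overlap for 1 of the 16 and for 4 of the 12, against 28.5% of all genes, and this difference was not tested.

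The 36 genes showed no common direction. Adar, Stat2 and Parp14 were higher in the libraries labelled knockout in the authors' deposited table, where they were the 3 members under a false discovery rate of 0.05, or 8.33% of 36. The background was 7.39% of 15605 genes with a rate in either direction, 4.14% higher and 3.25% lower. By limma, 0 of 36 passed an adjusted p of 0.05, against 0.158% of 17666 genes (0.102% higher and 0.0566% lower). At an unadjusted p under 0.05 there were 8 members, 6 higher and 2 lower, or 22.2% against 20.0% of all genes (10.8% higher and 9.20% lower). In 7 members the 3 values of a label lay wholly to one side of the other label's values, 6 higher (Adar, Stat2, Parp14, Mx1, Dtx3l and Trim25) and 1 lower (Ifit2), or 19.4% against 28.5% of all genes (13.6% higher and 14.9% lower). Counted in either direction, these shares lie near or below the background. By direction they do not: the deposited calls were all higher, at 8.33% against 4.14%. At the unadjusted p and without overlap, too, the higher members exceeded the higher background share and the lower members fell below theirs. This split by direction was not tested. The median log2 difference was 0.11 over the members and 0.01 over all genes, with 21 members above 0 and 15 below. With 3 samples against 3, an exact two-sided permutation test of a single gene cannot give a p below 0.1.

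**Figure D1:**
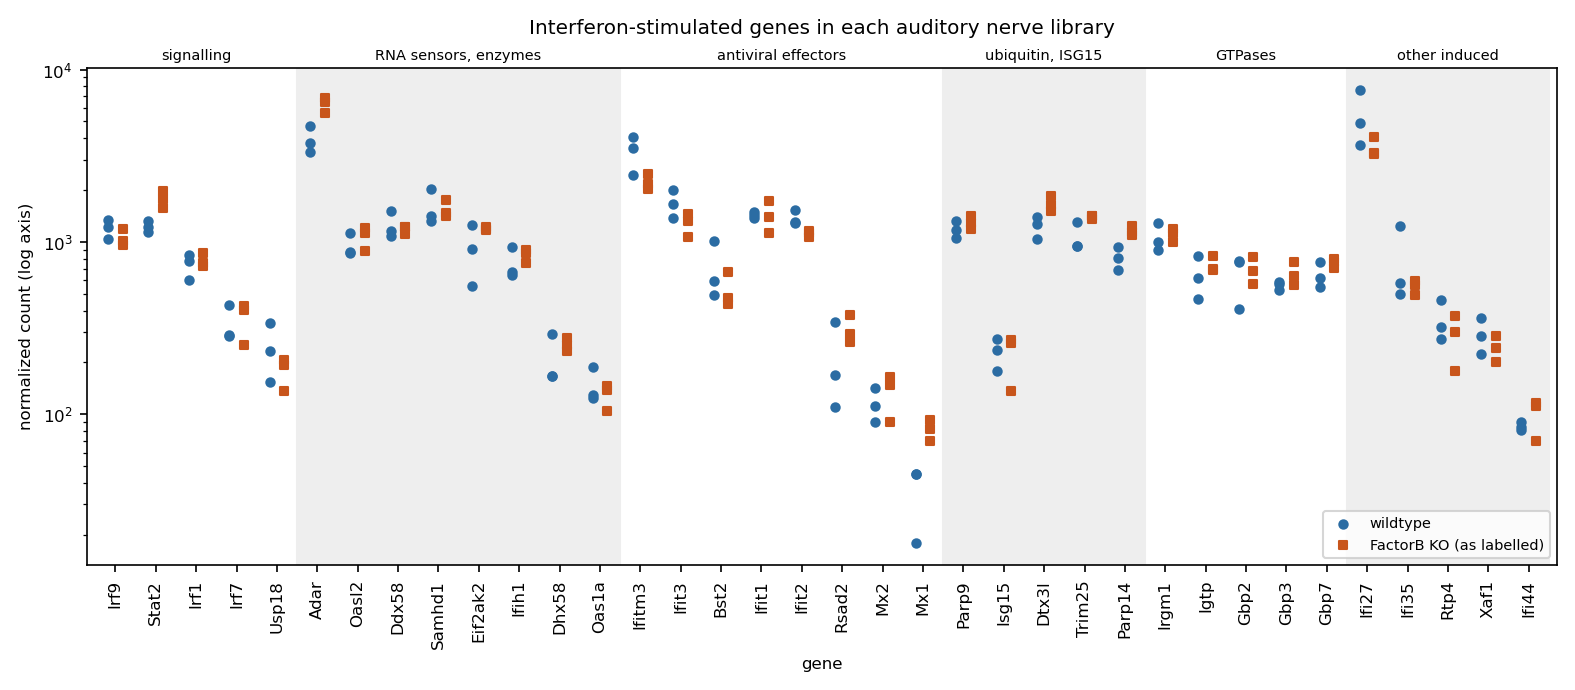
Normalized count (log axis) of each of the 36 genes in the 3 libraries labelled wildtype (circles) and the 3 labelled FactorB KO (squares), grouped by role. Adar, Stat2, Parp14, Mx1, Dtx3l and Trim25 lie higher in every library labelled knockout, Ifit2 lies lower in every one, and the other 29 genes overlap.

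The signalling members were led by Stat2, a part of the complex that answers type I interferons (chr10:128270498-128292853). Stat2 had 1327, 1139 and 1222 normalized counts among libraries labelled wildtype, against 1563, 1763 and 1975 among the others. Every library labelled knockout was above every library labelled wildtype, and the means were 1229 ± 94 and 1767 ± 206 (SD, n = 3 each). The log2 difference was 0.52 with a standard error of 0.13 (adjusted p = 0.162 by limma; 0.0691 to 0.485 over the alternatives), and the authors' deposited table gave a 1.44-fold higher level with a false discovery rate of 0.0168. Irf9, which joins STAT2 in that complex, did not follow it: it had 1036, 1341 and 1219 against 960, 1015 and 1181, with overlapping groups and a log2 difference of -0.19 (SE 0.14). Whether Irf9 and Stat2 differ in their response was not tested. Irf1 and Irf7, transcription factors induced by interferon that extend the response, had log2 differences of 0.10 and 0.09, and Usp18, which removes ISG15 from proteins and restrains the receptor, had -0.38 (SE 0.32). The values of these 3 genes overlapped between labels.

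Among sensors and enzymes that act on RNA, Adar stood out. It encodes the deaminase that turns adenosine into inosine in double-stranded RNA and so keeps a cell's own RNA from the sensors (chr3:89714469-89753455). Adar had 4674, 3343 and 3734 normalized counts among libraries labelled wildtype, against 5579, 6838 and 6516 among the others, without overlap. The means of Adar were 3917 ± 684 and 6311 ± 654 (SD, n = 3 each), with a log2 difference of 0.70 (SE 0.15, adjusted p = 0.159 by limma; 0.0546 to 0.485 over the alternatives). The authors' deposited table gave Adar a 1.61-fold higher level and a rate of 0.00728. The gene makes a constitutive and an interferon-inducible isoform, and a count per gene does not separate them. In bulk tissue, more cells of a type and more RNA per cell cannot be told apart either.

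The sensors that ADAR protects against overlapped between labels. Ifih1 and Ddx58, which encode the RNA sensors MDA5 and RIG-I, had log2 differences of 0.19 (SE 0.18) and -0.07 (SE 0.15), and Dhx58, their relative LGP2, had 0.34 (SE 0.26). Eif2ak2, the kinase PKR that halts translation on double-stranded RNA, had 904, 557 and 1252 normalized counts against 1222, 1185 and 1172, so that the libraries labelled knockout lay inside the wide range of the others. Its log2 difference was 0.48 with a standard error of 0.27. Oasl2, an oligoadenylate synthetase-like protein, had 872, 864 and 1130 against 886, 1129 and 1211, a log2 difference of 0.17 (SE 0.17). Oas1a, a synthetase of the messenger that activates RNase L, had -0.17 (SE 0.25), and its close copy Oas1g had 20 to 40 normalized counts, so reads of Oas1a may be divided between copies. Samhd1, which breaks down deoxynucleotides, had -0.024 (SE 0.18). The 8 genes of this group together summed to 8103 to 11056 normalized counts among libraries labelled wildtype and 11568 to 13111 among the others, with Adar the largest single part of each sum. With each gene given the same weight the labels overlapped. The mean log2 deviation of the 8 genes from their own means was -0.18, -0.35 and 0.23 against 0.004, 0.12 and 0.17. Wildtype replicate 3 had the highest value for 6 of the 8.

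The direct antiviral effectors had differences in both directions. Ifitm3, a membrane protein that blocks fusion of viruses, had 2429, 3511 and 4062 normalized counts among libraries labelled wildtype, against 2162, 2035 and 2483 among the others. Its lowest wildtype value lay between the 2 upper knockout values, so the groups overlapped; the log2 difference was -0.55 (SE 0.20, adjusted p = 0.203 by limma; 0.0582 to 0.526 over the alternatives). Ifit2, of the family that binds foreign RNA caps and translation factors, had 1286, 1301 and 1527 against 1160, 1061 and 1123 and was the 1 member lower in every library labelled knockout, with a log2 difference of -0.30 (SE 0.12, adjusted p = 0.227 by limma; 0.165 to 0.550 over the alternatives). Its neighbours on chromosome 19 overlapped between labels: Ifit3 had 1377, 2008 and 1663 against 1072, 1317 and 1459, a log2 difference of -0.39 (SE 0.18), and Ifit1 averaged 1426 ± 56 against 1419 ± 304 (SD, n = 3 each), a log2 difference of -0.029. Ifit3 has a close copy, Ifit3b, at 327 to 639 normalized counts, so the division of reads between them is uncertain.

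Mx1, a dynamin-like GTPase against orthomyxoviruses, was the scarcest member and had the widest difference. It had 45, 45 and 18 normalized counts among libraries labelled wildtype, against 70, 93 and 82 among the others, with no overlap. Its log2 difference was 1.26 (SE 0.40, adjusted p = 0.184 by limma; 0.0858 to 0.490 over the alternatives), and the authors' deposited table gave a 2.25-fold higher level with a rate of 0.0717. In most laboratory strains, C57BL/6 among them, the Mx1 gene carries a deletion and makes no working protein. Mx2 (log2 difference 0.21, SE 0.30) and Rsad2, the radical SAM enzyme viperin (0.73, SE 0.40), overlapped between labels. Rsad2 spread most widely within a label, with 169, 110 and 342 normalized counts among libraries labelled wildtype, against 263, 293 and 379 among the others. Bst2, the tether that holds budding virus at the membrane, had a log2 difference of -0.37 (SE 0.29).

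The group around ISG15, ubiquitin and ADP-ribosylation held 3 of the 6 non-overlapping higher members. That was 3 of the group's 5 genes, or 60.0%, against 28.5% of all genes without overlap (13.6% higher). Its 5 genes summed to 4302 to 4751 normalized counts among libraries labelled wildtype and 5301 to 6161 among the others. Their mean log2 deviations from their own means overlapped, at -0.19, -0.20 and -0.036 against -0.057, 0.20 and 0.29. By limma 3 of the 5 had an unadjusted p under 0.05, or 60.0% against 20.0% of all genes. After the correction for exon length described below 1 did, or 20.0% against 15.2% of all genes with a length. Parp14, a mono-ADP-ribosyltransferase, had 931, 684 and 804 normalized counts among libraries labelled wildtype, against 1104, 1140 and 1238 among the others. Its log2 difference was 0.53 (SE 0.14, adjusted p = 0.164 by limma; 0.0693 to 0.485 over the alternatives), and the authors' deposited table gave a 1.44-fold higher level with a rate of 0.0345. Parp14, Dtx3l and Parp9 lie side by side on chromosome 16 (chr16:35831892-35871518, chr16:35926515-35939027 and chr16:35938470-35972621).

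Dtx3l, a ubiquitin ligase that works in a complex with PARP9, had 1397, 1271 and 1044 against 1510, 1628 and 1841 normalized counts, without overlap, and a log2 difference of 0.43 (SE 0.15, adjusted p = 0.194 by limma; 0.104 to 0.489 over the alternatives). Parp9 itself had 1052, 1166 and 1330 against 1192, 1296 and 1408, which overlap, and a log2 difference of 0.14 (SE 0.13). The annotated spans of both genes overlap at their starts, on opposite strands. Whether counting used strand is not stated in the labels, so reads from that stretch cannot be assigned. Trim25, the ubiquitin ligase that acts on RIG-I, had 945, 945 and 1300 against 1359, 1417 and 1406, again without overlap. Its log2 difference was 0.41 (SE 0.15, adjusted p = 0.211 by limma; 0.0378 to 0.512 over the alternatives), and without wildtype replicate 3 it was 0.56 and passed (adjusted p = 0.0378 by limma). Isg15, the ubiquitin-like tag, had 179, 236 and 273 against 136, 260 and 268, a log2 difference of -0.09 (SE 0.31) whose sign changed without wildtype replicate 3 (0.042) and without knockout replicate 1 (0.22).

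**Figure D2:**
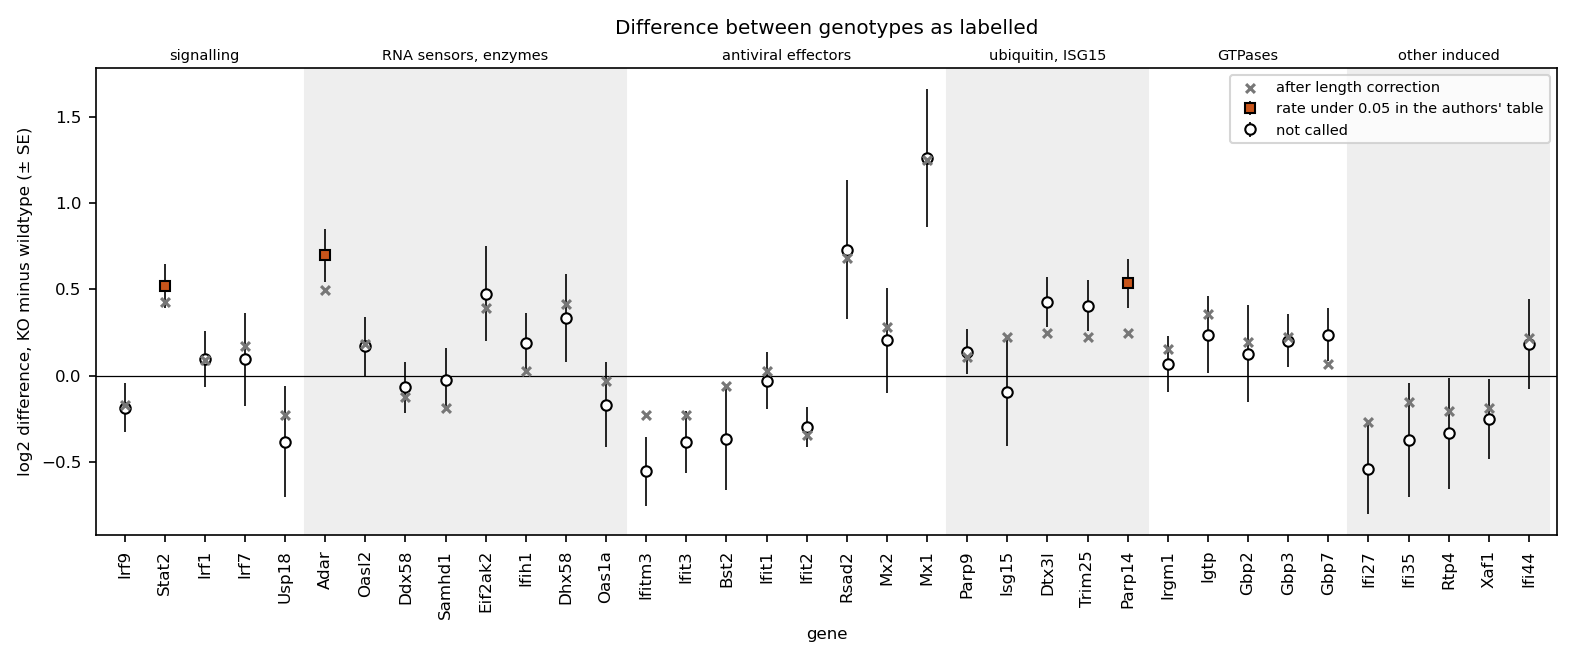
Log2 difference (libraries labelled FactorB KO minus wildtype, ± SE from limma, n = 3 each) of the 36 genes by role. Filled squares mark Adar, Stat2 and Parp14, the members under a rate of 0.05 in the authors' deposited table; grey crosses give the difference after correction for exon length.

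The interferon-gamma-inducible GTPases all had log2 differences above 0 and all overlapped between labels. The difference of Gbp2 was -0.18 without wildtype replicate 3. The differences were 0.13, 0.20 and 0.24 for Gbp2, Gbp3 and Gbp7, guanylate-binding proteins that gather on vacuoles of microbes, whose values over the 6 libraries ran from 407 to 823, from 523 to 761 and from 550 to 794 normalized counts. Irgm1, which governs the other immunity-related GTPases, had 892, 994 and 1293 normalized counts against 1121, 993 and 1188, a log2 difference of 0.07 (SE 0.16) that was -0.047 without wildtype replicate 1. Igtp, an effector of the same family, had 621, 464 and 832 against 684, 696 and 827, a log2 difference of 0.24 (SE 0.22).

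Ifi27, a mitochondrial and nuclear membrane protein, was with Ifitm3 the most abundant member per length. Ifi27 had 3647, 4882 and 7566 normalized counts among libraries labelled wildtype, against 3300, 3237 and 4083 among the others, which overlap, and a log2 difference of -0.54 (SE 0.26) that was -0.26 without wildtype replicate 3. Ifi35, which acts as a partner of NMI, had 496, 578 and 1243 against 559, 495 and 593, and its log2 difference of -0.37 was 0.032 without wildtype replicate 3. Ifi44, Rtp4 and Xaf1 had 0.18, -0.33 and -0.25, each with standard errors of 0.23 to 0.32 and overlapping groups. Per kilobase of merged exons, the mean over the 6 libraries was 4344 normalized counts for Ifi27 and 4101 for Ifitm3, and without wildtype replicate 3 it was 3736 and 3723, so their order is not settled. Next came Adar with 852 and Ifit3 with 850. At the other end were Mx1 with 17.4 and Ifi44 with 31.6. The levels of Adar and Ifit3 differ by less than their spread over libraries.

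The members tended to be high or low in the same libraries. Wildtype replicate 3 was the highest of the 3 libraries labelled wildtype for 24 of 36 members, or 66.7%, against 39.6% of 14214 genes with a mean of at least 50. Knockout replicate 3 was the highest of its label for 23 members, or 63.9% against 32.7% of those genes, and knockout replicate 1 the lowest for 26, or 72.2% against 35.5%. The mean log2 deviation of the 36 genes from their own means came to -0.16, -0.13 and 0.16 among libraries labelled wildtype, against -0.12, 0.06 and 0.20 among the others. Members of one pathway in one animal are not independent of each other, and these counts carry no test. The median SD of a member on the log2 scale came to 0.30 among libraries labelled wildtype, against 0.16 among the others, against 0.25 and 0.11 for those 14214 genes. The groups of mean deviations overlapped between labels.

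**Figure D3:**
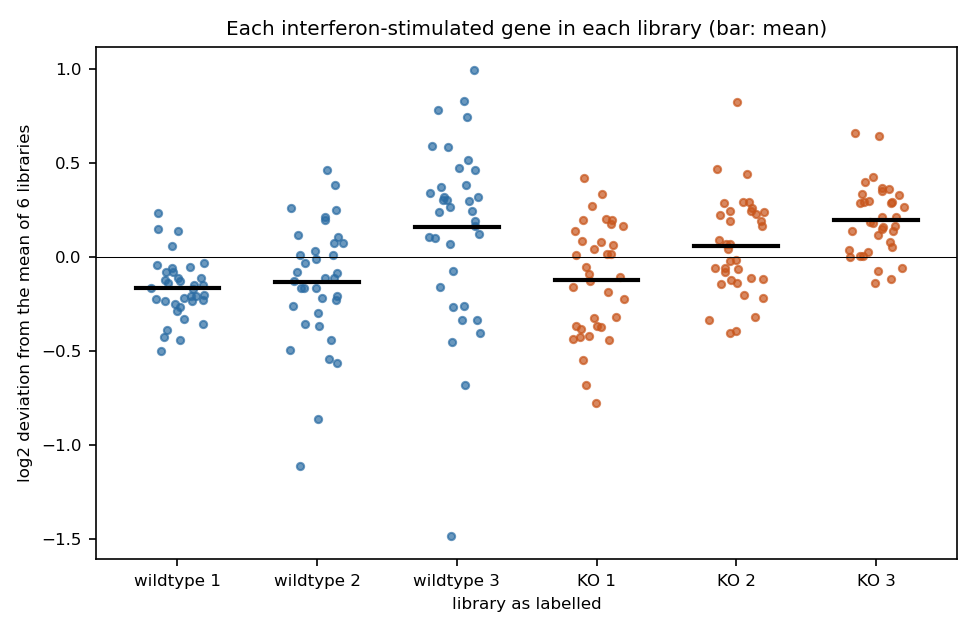
Log2 deviation of each of the 36 genes (points) from its mean over the 6 libraries, by library as labelled; bars are means over the genes. Wildtype replicate 3 and knockout replicate 3 lie highest (means 0.16 and 0.20), and wildtype replicate 1 lies lowest (-0.16).

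The difference between labels went with transcript length. Merged exon lengths ran from 0.678 kb for Ifitm3 to 7.42 kb for Parp14. Of the 18 members longer than the median of 2.98 kb, 14 had a log2 difference above 0, with a median of 0.22; of the 18 shorter ones 7 did, with a median of -0.13. Across the 36 genes, which share the same 6 libraries, Pearson's r between log2 length and the log2 difference was 0.65 and Spearman's rho 0.71. Over the 14043 such genes whose length was known, r was 0.47 and rho 0.53, and the medians were 0.16 for the longer and -0.15 for the shorter genes. The part of length in the single differences was measured by removing the trend in each library. Adar then had a log2 difference of 0.50 (adjusted p = 0.218 by limma), Stat2 0.43 (adjusted p = 0.235), Mx1 1.25 (adjusted p = 0.252) and Ifit2 -0.35 (adjusted p = 0.268). Among the 36 genes r was 0.33 and rho 0.41 after this correction, against 0.046 and 0.041 over those 14043 genes, so part of the members' relation with length remained. Parp14 went from 0.53 to 0.25, Trim25 from 0.41 to 0.23, Dtx3l from 0.43 to 0.25, Ifitm3 from -0.55 to -0.23 and Ifi27 from -0.54 to -0.27. After the correction, 5 members had an unadjusted p under 0.05 (4 higher, 1 lower), or 13.9% against 15.2% of all genes with a length (7.35% higher and 7.85% lower).

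**Figure D4:**
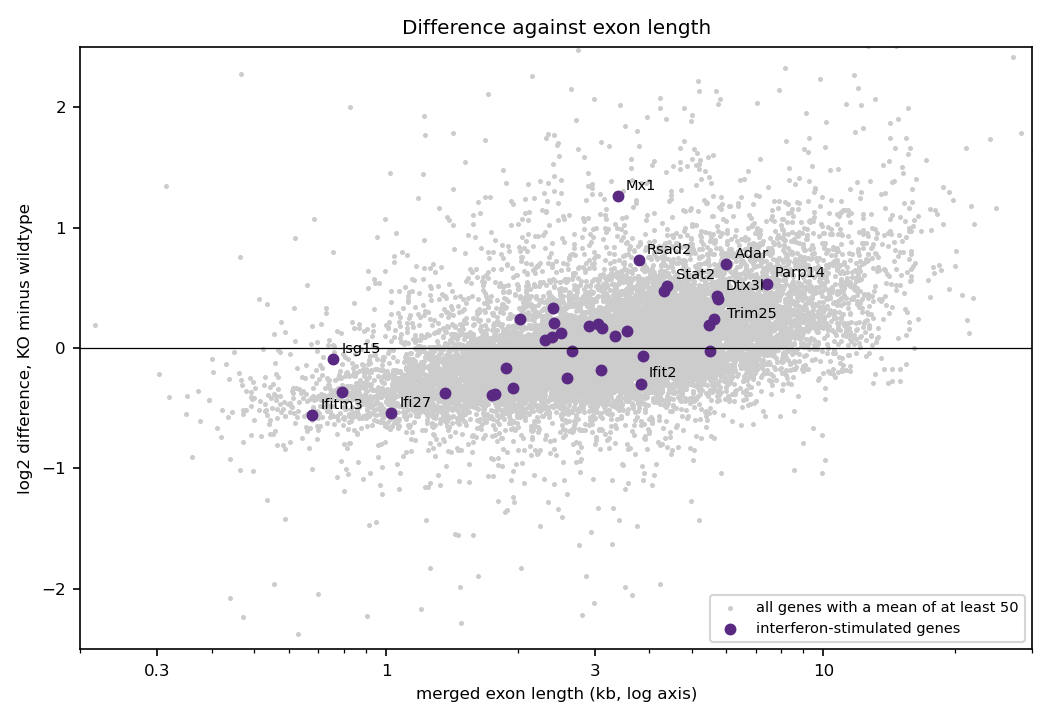
Log2 difference (FactorB KO minus wildtype, as labelled) against merged exon length (kb, log axis) for the 36 genes (dark points) and for all genes with a mean of at least 50 (grey; values beyond 2.5 either way are not drawn). Short members such as Ifitm3 and Ifi27 lie below 0, and long members such as Adar and Parp14 lie above it.

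Upstream of these genes, 7 of 15 ligand and receptor genes looked up were measured, and Ifnk was the 1 ligand among them, with 0, 1 and 10 normalized counts among libraries labelled wildtype, against 1, 0 and 0 among the others; other ligands were not analysed here. Limma passed 0 of the 7 and left 0 at an unadjusted p below 0.05; the authors' deposited table called 0 of the 6 with a rate. Ifnar1 had 3271 to 3792 normalized counts over the 6 libraries, with a log2 difference of 0.08 (SE 0.10), and Il10rb, a subunit shared with the receptor of lambda interferons, had 4499 to 5609 and -0.17 (SE 0.11). Of 15 signal transduction genes 0 passed by limma, and 3 had an unadjusted p under 0.05, or 20.0%, the same share as all genes. These 3 were higher, among them Tyk2 (0.33), a receptor kinase, and Socs3 (0.48), the feedback inhibitor. The authors' deposited table called 0 of the 15. After the length correction the differences of Tyk2 and Socs3 were 0.16 and 0.54.

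Nucleic acid sensing gave mixed directions. Of 23 measured genes 0 passed by limma and 4 had an unadjusted p under 0.05, 2 in each direction, or 17.4% against 20.0% of all genes. The authors' deposited table called 2 of the 23, or 8.70% against 7.39%. Tlr9, the endosomal receptor for unmethylated DNA, had 41, 26 and 41 normalized counts among libraries labelled wildtype, against 98, 104 and 68 among the others. Its log2 difference was 1.30 (SE 0.31), and the authors' deposited table called it, at 2.49-fold higher. Aim2, a cytosolic DNA sensor, had 50, 81 and 42 against 98, 130 and 124 (log2 difference 1.06, SE 0.30) and was not called there. Rnaseh2b, a subunit of the enzyme that removes ribonucleotides from DNA, had 423, 445 and 375 against 290, 300 and 240; it was 1.50-fold lower in the authors' deposited table, where it was called. Its log2 difference was -0.58 (SE 0.16), and that of the subunit Rnaseh2c was -0.37 (SE 0.15). After the length correction Rnaseh2b and Rnaseh2c had -0.39 and -0.11, and Aim2 had 1.10.

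A further list of 63 interferon-stimulated genes, 60 of them measured, gave 0 passing by limma and 12 at an unadjusted p under 0.05, 8 higher and 4 lower, or 20.0%, the same as all genes. The authors' deposited table called 2 of the 59 with a rate, Gbp6 and Gbp10, both higher, a share below the 7.39% of all genes (4.14% higher). Gbp6 had 860, 770 and 855 normalized counts among libraries labelled wildtype, against 1236, 1362 and 1327 among the others, a log2 difference of 0.66 (SE 0.11, adjusted p = 0.121 by limma). Gbp10 had 152, 111 and 101 against 228, 344 and 211, a log2 difference of 1.09 (SE 0.26, adjusted p = 0.162 by limma). Both belong to the cluster of guanylate-binding protein genes on chromosome 5, whereas Gbp2, Gbp3 and Gbp7 belong to the cluster on chromosome 3. Of the 6 measured genes on chromosome 5 (Gbp4, Gbp6, Gbp8, Gbp9, Gbp10 and Gbp11), 5 did not overlap between labels, against 28.5% of all genes (13.6% higher), and the log2 differences of the 6 ran from 0.40 to 1.09. Of the 4 on chromosome 3 (Gbp2, Gbp3, Gbp5 and Gbp7) 0 were without overlap, and theirs ran from 0.13 to 0.24. The division into clusters was made after the values were seen, the genes of a cluster are close copies whose reads may be divided among them, and the difference between clusters was not tested. After the length correction Gbp6 and Gbp10 had 0.72 and 1.06.

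**Figure D5:**
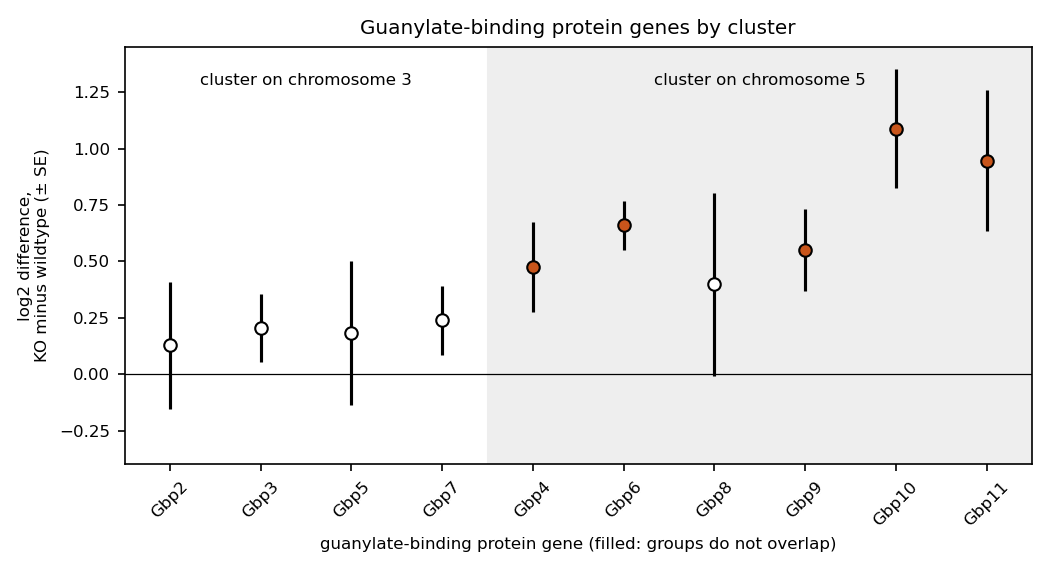
Log2 difference (FactorB KO minus wildtype as labelled, ± SE from limma, n = 3 each) of the guanylate-binding protein genes on chromosomes 3 and 5. Filled points mark genes whose groups do not overlap, 5 of 6 on chromosome 5 and 0 of 4 on chromosome 3, against 28.5% of all genes.

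Markers of the cells that could carry these transcripts were set beside them. Of 18 macrophage genes 8 had a log2 difference above 0 and 10 below, and their summed normalized counts ran from 14442 to 15899 among libraries labelled wildtype, against 14376 to 16219 among the others, with 0 markers at 0. The authors' deposited table called 2 of the 18, or 11.1% against 7.39% of all genes. These were Itgam, an integrin subunit, and Cd74, the invariant chain of antigen presentation, 1.52-fold and 1.39-fold higher. Without overlap 3 of the 18 were higher (Cx3cr1, Itgam and Cd74) and 4 lower (Cd68, Fcgr3, Tyrobp and C1qb), or 38.9% against 28.5% of all genes. At an unadjusted p under 0.05 by limma 2 were higher and 4 lower, or 33.3% against 20.0% of all genes. After the length correction 2 were higher and 0 lower, or 11.1% against 15.2% of all genes with a length. Of 9 endothelial genes 8 were above 0, and the sums were 15086 to 17162 and 17730 to 21517, without overlap and with 0 markers at 0. The authors' deposited table called Kdr and Flt1, receptors of vascular growth factor, 1.54-fold and 2.18-fold higher. These were 2 of the 9, or 22.2% against 7.39% of all genes. Of 9 measured red cell genes 9 were below 0, with sums of 10652 to 33095 and 2698 to 3882; Epb42 was at 0 in knockout replicates 2 and 3. Of 10 neutrophil and marrow genes 10 were below 0, with sums of 827 to 2411 and 30 to 715, and Elane and Retnlg were at 0 in knockout replicate 3. Of 12 measured lymphocyte genes 10 were below 0, with sums of 199 to 305 and 98 to 188; Cd3g was at 0 in knockout replicates 1 and 3, Ncr1 likewise, and Klrb1c in wildtype replicate 3 and knockout replicate 3. Siglech, looked up as 1 of 6 genes for plasmacytoid dendritic cells, a source of type I interferon, had 131 to 175 and 156 to 214 normalized counts. Of its list of 6 genes 4 were above 0, with sums of 4183 to 4571 and 4470 to 5404, of which Tcf4, also expressed in other tissues, made up most. Ly6d, Klk1 and Spib of that list had 0 to 22, 1 to 7 and 4 to 64 over the 6 libraries. Which cells carried Siglech cannot be told from bulk counts, so the presence of these cells is not shown. Ly6d was at 0 in wildtype replicate 1 and knockout replicate 2, and Spib was 5.77-fold lower in the authors' deposited table, where it was called. The part of these cells in the differences above was not tested.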

How the data were processed

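RNA was sequenced from 6 auditory nerve samples, 3 per genotype as labelled. Per the labels' protocols, samples that looked degraded were dropped and TruSeq RNA libraries prepared. The submitters' processing notes list TopHat2, DESeq2, Partek and mm10 with no roles; which annotation, filters and strand setting applied is not given in the sources used here. For each gene and sample the authors deposited 1 score, read from the values as gene counts scaled per sample and rounded (normalized counts), beside a signed fold change and a false discovery rate, per the file headers; the rate is missing for 2061 genes. Depth in reads is unknown, so no count test was run and no counting interval is given. There were 0 sample columns left unused. Some genes of the lists are not reported here.

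Values were transformed as log2(value + 1); a filter at a mean of 1 removed 0 genes. Limma 3.58.1 in R 4.3.3 fitted genotype as the only term over all 17666 genes, with eBayes and a trend, adjusted by the Benjamini-Hochberg method at 0.05. Fold changes on this scale understate low genes. Gene coordinates and promoter windows are RefSeq's on GRCm38.p6, the assembly mm10 stands for. Exon lengths are merged exons of GENCODE M21 basic, for 17358 genes; the length correction removed a lowess trend (span 0.3) of each library's deviation on log2 length. The fit was also run on simulated data. The changes planted there were larger than the differences of all members but Mx1, so that run does not show how often differences of their size are found. The members and lists were chosen with earlier results of these data known. Named with full values are members called by either table or without overlap, and the 2 most abundant per kilobase in each of 6 role groups; others are given more briefly, Eif2ak2, Rsad2 and Ifit1 in part after their values were seen. In other lists the plan was to name up to 4 called genes or, with none, the 2 most abundant, and further genes there were chosen after their values were seen. That plan was not followed for the signal transduction, lymphocyte, red cell, neutrophil and nerve lists. In the last 3 of these the authors' deposited table called 8 of 8, 5 of 8 and 2 of 14 genes with a rate. The background was 7.39% of all genes with a rate, and the called genes of these 3 lists are not named. Alternatives were other pseudocounts (0.5 and 5), a minimum mean of 10, no filter, equal column totals, quantile normalization, no trend, array weights, a replicate block, the length correction and leaving out each library.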

Additional observations from a re-analysis of the deposited data

How the results depend on the processing

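The count of 0 members passing limma held under 15 of 16 alternatives and was 1 without wildtype replicate 3, which gave Trim25, so leaving out single libraries gave 0 to 1. At an unadjusted p under 0.05 the count of 8 was 5 after the length correction and 3 to 11 without single libraries: 5, 3 and 5 without knockout replicate 1, 2 and 3 and 10, 6 and 11 without wildtype replicate 1, 2 and 3, against 12.6%, 10.2%, 10.7%, 25.8%, 13.9% and 29.3% of all genes. The count of 7 members whose groups did not overlap was 7 to 14 without single libraries, with 14 members (38.9%, against 47.7% of all genes) without wildtype replicate 3 and 13 (36.1%, against 43.6%) without wildtype replicate 1. It was 11 (30.6%, against 37.5%) without knockout replicate 1 and 12 (33.3%, against 35.0%) without knockout replicate 3; fewer samples leave less room for overlap. The median log2 difference of the members was 0.05 to 0.17 over all alternatives. Of the further interferon-stimulated genes, 1 passed with array weights (Gbp6) and 0 to 3 without single libraries, the 3 being Gbp6, Znfx1 and Helz2 without wildtype replicate 3. Isg15 changed sign with array weights (0.023) and after the length correction (0.22), and ran from -0.26 to 0.22 without single libraries, above 0 without wildtype replicate 3 (0.042) and knockout replicate 1. Ifi35 ran from -0.63 to 0.032, above 0 without wildtype replicate 3, and Irgm1 from -0.047, without wildtype replicate 1, to 0.22. Over the 17 members given with full values and the 16 alternatives, 265 of 272 values kept their direction and side of the threshold, 6 changed sign and Trim25 passed once. The cause was not tested. Part of that agreement was fixed in advance. The filter removed 0 genes, so the fit with no filter repeated the main one. The fits with no trend and with a replicate block leave the log2 difference as it was and could not change its sign. Of the other 19 members, 7 (Ifit1, Irf1, Irf7, Oas1a, Ddx58, Gbp2 and Samhd1) changed sign when some library was left out. Same-numbered samples did not deviate together in every pair (r = -0.065, 0.10 and 0.25), so the numbers were not taken as pairs. With a replicate block, 9 members had an unadjusted p under 0.05 and 0 passed, and 7 of all genes passed in place of 28. That count of 28 was 16 with no trend, 111 with array weights, 18 after the length correction, 87, 2 and 566 without wildtype replicate 1, 2 and 3, and 0 by limma without any 1 knockout replicate (2218, 1797 and 1892 at an unadjusted p under 0.05). The number of reads is unknown, so no limit of depth can be given.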

Other observations

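Among the further interferon-stimulated genes, 3 were far higher in wildtype replicate 3 than in the other 5 libraries, genes chosen after their values were seen. Ifi27l2a, a small relative of Ifi27, had 1505 normalized counts there, against 230 and 309 in the other libraries labelled wildtype and 159 to 396 in those labelled knockout. Lgals3bp, a secreted glycoprotein, had 5846 there and 2073 to 3079 elsewhere. Ifi30, a lysosomal thiol reductase of antigen processing, had 1852 there and 422 to 831 elsewhere.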
